A study of Mus musculus with 14 samples.

Results

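The axonal ER-shaping genes described here are Reep1, Reep2, Reep5, Atl1, Spast, Rtn1, Rtn3 and Rtn4, whose proteins bend, fuse or anchor the membrane of the endoplasmic reticulum (ER). They were taken by gene symbol from 2 tables of gene counts, and all 8 were found in both, among 56691 genes in the 5xFAD table and 20833 in the p75 table. The family was chosen by what its proteins do, with earlier results of these data known. The higher Reep1 counts in the 5xFAD table are taken here as the result that pointed to it. The members' 5xFAD differences are therefore given as a description, without p-values. Calls are only counted, and the test printed for them there is whether the difference varied between replicates, which the choice is taken not to have used. RNA was sequenced from mouse dorsal root ganglia, the clusters of sensory nerve cell bodies beside the spinal cord, in 14 libraries. In the 5xFAD table, 4 libraries have the genotype 5xFAD-MUTANT, a transgenic Alzheimer disease model carrying mutant human transgenes, APP among them, under a Thy1 promoter, and 4 are WT. In the p75 table, 3 libraries have the genotype P75f/f-knockout and 3 are P75f/f, the floxed mice from which the p75 neurotrophin receptor (gene Ngfr) has not been removed. The labels give a sensory neuron as the cell type, and no age, sex, treatment or Cre driver. Nothing in them says that replicates are separate animals, and the p-values then measure only how far these samples spread, which can be technical.

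The ER of a nerve cell reaches from the cell body along the whole axon as a network of thin tubules. REEP and reticulon proteins insert hairpins into the membrane and give a tubule its curvature. Atlastin-1 (Atl1) is a GTPase that fuses tubules at junctions, and spastin (Spast) is an ATPase that severs microtubules and binds both atlastin-1 and REEP1. Mutations of human REEP1, REEP2, ATL1 and SPAST cause hereditary spastic paraplegia, a disease of the longest axons. Rtn4 encodes Nogo, which is also known as an inhibitor of axon growth that acts through the Nogo receptor, for which p75 is a co-receptor.

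Total counts ranged from 13907070 to 19837836 per library in the 5xFAD table and from 4731119 to 6052690 in the p75 table, and levels are given as CPM, the gene's counts scaled to the same total in every library. Ngfr, the gene targeted in the p75 knockout, had 22.5, 24.1 and 35.9 CPM in p75 knockout libraries, against 135, 129.7 and 87.7 CPM in p75 floxed libraries. Its log2 fold change was -2.02 (SE 0.35), which did not pass the threshold in edgeR's quasi-likelihood test (adjusted p = 0.9999, unadjusted p = 0.000411) and passed it in DESeq2 (adjusted p = 0.0044). Replicate 3 of both p75 groups stood apart from replicates 1 and 2. The 10 Schwann cell markers summed to 5666 CPM in its p75 knockout library and 7412 CPM in its p75 floxed library, against at least 16340 CPM in the other 4 libraries.

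Markers of neurons were higher in the 5xFAD libraries as well. The 14 pan-neuronal markers summed to 1202 to 1337 CPM in 5xFAD libraries and 617 to 820.1 CPM in wild-type libraries, and none was at 0 in any group. By edgeR's quasi-likelihood test with Benjamini-Hochberg adjustment over 15845 genes, 11 of these 14 rose in 5xFAD, with a median log2 fold change of 1.35 over the list, against 0.00193 over all genes tested. The 10 Schwann cell markers summed to 3952 to 5450 CPM in 5xFAD and 2125 to 3935 CPM in wild type, with 0 of 10 called by edgeR, 5 at an unadjusted p under 0.05 and 2 called by DESeq2. For 5xFAD the share of all genes at an unadjusted p under 0.05 is not given, so nothing is read from such counts. Macrophage markers summed to 33.3 to 125 CPM in 5xFAD and 81.5 to 136 CPM in wild type, and endothelial markers to 451 to 779 CPM in 5xFAD and 753 to 1097 CPM in wild type. All 7 macrophage markers tested and all 6 endothelial markers had log2 fold changes below 0, with 0 called by edgeR or DESeq2. Satellite glia markers summed to 1388 to 1691 CPM in 5xFAD and 1043 to 1435 CPM in wild type. Of these 7 markers, 5 had log2 fold changes above 0, 1 was called lower by edgeR and 2 were called by DESeq2. Fibroblast markers summed to 2086 to 4798 CPM in 5xFAD and 1827 to 4358 CPM in wild type, and were higher in replicates 3 and 4 than in replicates 1 and 2 of both groups. In such bulk samples, more cells of a type and more RNA per cell cannot be told apart, and the part of these shifts in the members' values was not tested.

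In the 5xFAD table the members parted into those with higher values in every 5xFAD library than in any wild-type library (Reep1, Reep2, Reep5, Atl1, Rtn1 and Rtn3) and those whose groups overlapped (Spast and Rtn4). The 6 without overlap stand beside 6.44% of all genes tested that were likewise higher, and 11% in either direction. The 5 members called higher (all of the 6 but Rtn3) stand beside a background of 2.56% called higher, and the 0 called lower beside 1.04%, 3.6% in all. Since the family was chosen with this table in view, nothing is read from these counts. The members' median log2 fold change was 0.387, with 6 of 8 above 0, where 50.4% of all genes were above 0. All 8 members passed the filter on low counts in both tables.

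**Figure D1:**
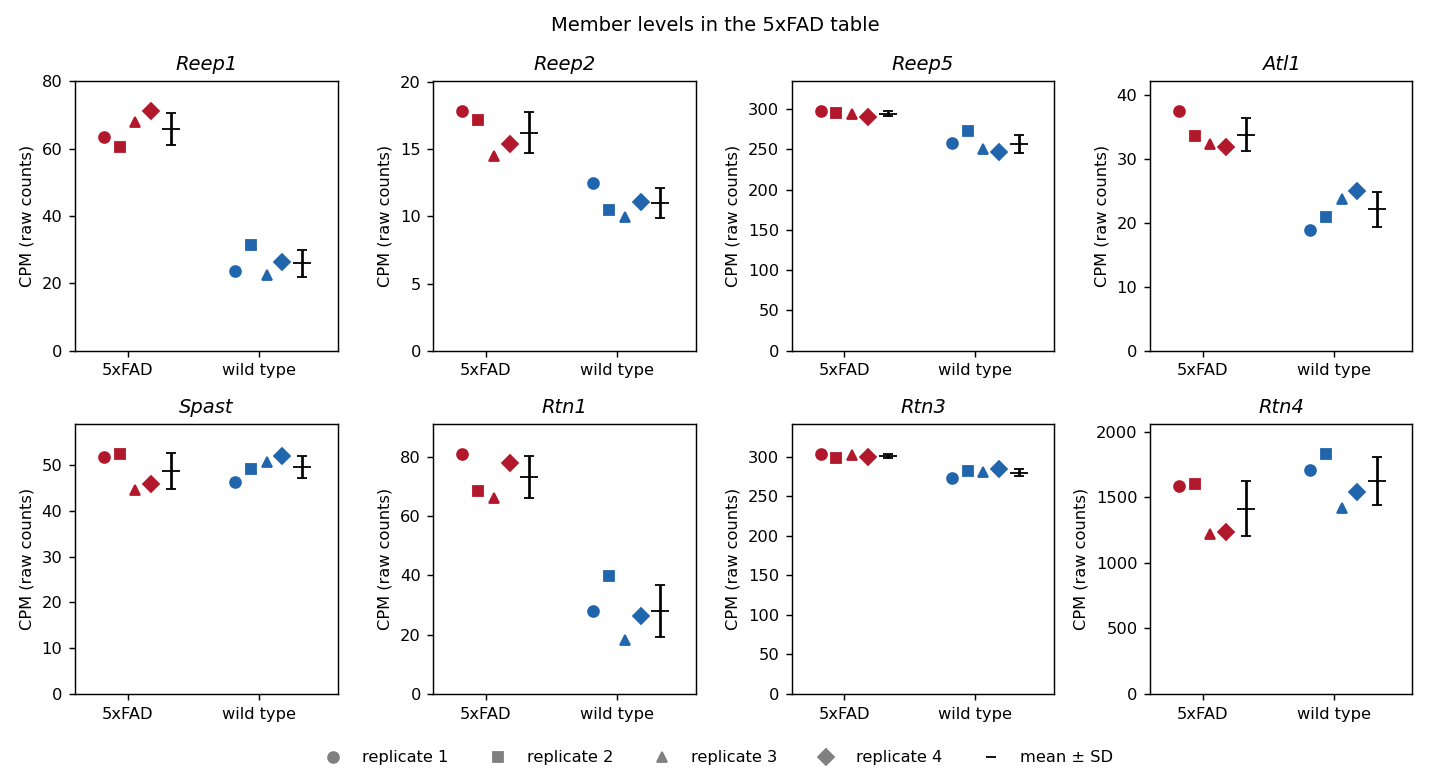
CPM of each member (vertical axes, from 0, each with its own scale) in the 4 5xFAD libraries (left, red) and the 4 wild-type libraries (right, blue), with markers for replicates 1 to 4 and bars for the mean ± SD. Reep1 lies between 60.6 and 71.2 CPM in 5xFAD and between 22.4 and 31.4 CPM in wild type, while the points of Spast and Rtn4 overlap between the groups.

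Among the REEP genes, Reep1, whose protein curves ER tubules and binds microtubules, had 63.5, 60.6, 68.0 and 71.2 CPM in 5xFAD libraries, against 23.6, 31.4, 22.4 and 26.3 CPM in wild-type libraries. The lowest 5xFAD library thus lay well above the highest wild-type library. The means were 65.8 ± 4.72 CPM in 5xFAD and 25.9 ± 4.01 CPM in wild type (SD, n = 4 each), and the log2 fold change of 1.36 (SE 0.10, 2.56-fold) ranked 193 of 15845 from the highest. Reep2, the close neuronal relative of Reep1, had 17.8, 17.2, 14.5 and 15.4 CPM in 5xFAD libraries, against 12.5, 10.5, 9.97 and 11.1 CPM in wild-type libraries. Its groups did not overlap either, but they lay closer together, at a log2 fold change of 0.57 (SE 0.11). Reep5, the broadly expressed member that curves tubules in many cell types, had 298, 295, 294 and 290.4 CPM in 5xFAD libraries, against 258, 272, 249.9 and 247 CPM in wild-type libraries. It was the REEP gene with the highest level and the smallest difference among the 3, at a log2 fold change of 0.21 (SE 0.05).

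Reep1 also made up a larger share of the REEP counts. Of the counts of Reep1, Reep2 and Reep5 together, Reep1 took at least 16.3% in each 5xFAD library, with a mean of 17.5% ± 1.20, against a mean of 8.80% ± 0.993 in wild-type libraries (SD, n = 4 each), without overlap. Over all 6 Reep genes in the table, with Reep3 at 255 ± 25.1 CPM in 5xFAD and 241 ± 15.6 CPM in wild type (SD, n = 4 each), the share of Reep1 was 9.93% ± 0.306 in 5xFAD and 4.57% ± 0.678 in wild type (SD, n = 4 each). Reep1, Reep2 and Reep5 summed to 376 ± 2.75 CPM in 5xFAD and 294 ± 14.6 CPM in wild type (SD, n = 4 each). These shares hold no correction for gene length, so they describe counts and not molecules.

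Atl1, which fuses ER tubules and is the neuronal atlastin, had 37.5, 33.5, 32.3 and 31.8 CPM in 5xFAD libraries, against 18.8, 21.0, 23.6 and 24.9 CPM in wild-type libraries. All 5xFAD libraries were above all wild-type libraries, with a log2 fold change of 0.62 (SE 0.10). Spast, its microtubule-severing partner, had 51.8, 52.4, 44.6 and 46.0 CPM in 5xFAD libraries, against 46.3, 49.2, 50.6 and 52.1 CPM in wild-type libraries. Here the groups covered the same range, the means were 48.7 ± 3.98 CPM in 5xFAD and 49.6 ± 2.45 CPM in wild type (SD, n = 4 each), and the log2 fold change was -0.02 (SE 0.07).

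Among the reticulons, Rtn1, a reticulon known as a marker of neuroendocrine and neuronal cells, had 80.8, 68.3, 66.2 and 77.7 CPM in 5xFAD libraries, against 27.8, 39.6, 18.3 and 26.2 CPM in wild-type libraries. The groups were far apart, and the log2 fold change of 1.41 (SE 0.19, 2.65-fold) was the highest of the 8, ranking 163 of 15845. Rtn3, which also acts in the turnover of ER tubules and binds the secretase BACE1, had 303, 298, 302 and 299.7 CPM in 5xFAD libraries, against 273, 282, 281 and 284 CPM in wild-type libraries. Its libraries were among the most even of all members, so that the groups did not overlap although the log2 fold change was only 0.11 (SE 0.05). Rtn4 (Nogo), the most abundant of the 8, had 1588, 1603, 1222 and 1238 CPM in 5xFAD libraries, against 1709, 1828, 1415 and 1540 CPM in wild-type libraries. Its groups overlapped, at a log2 fold change of -0.19 (SE 0.11). Replicates 3 and 4 were lower than replicates 1 and 2 in both groups, and within either pair of replicates the 5xFAD libraries were below the wild-type libraries. Replicates 3 and 4 averaged 1230.0 CPM and replicates 1 and 2 averaged 1596 CPM in 5xFAD, and the same means were 1478 and 1769 CPM in wild type.

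Rtn1 took 4.13% ± 0.549 of the counts of the 3 reticulons in 5xFAD and 1.43% ± 0.318 in wild type, and Rtn4 took 78.9% ± 2.46 in 5xFAD and 84.0% ± 1.26 in wild type (SD, n = 4 each). Since Rtn4 holds most of the counts, the sum of all 8 members was 2246 ± 218 CPM in 5xFAD and 2296 ± 199.7 CPM in wild type (SD, n = 4 each), a difference within the spread of the libraries.

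**Figure D2:**
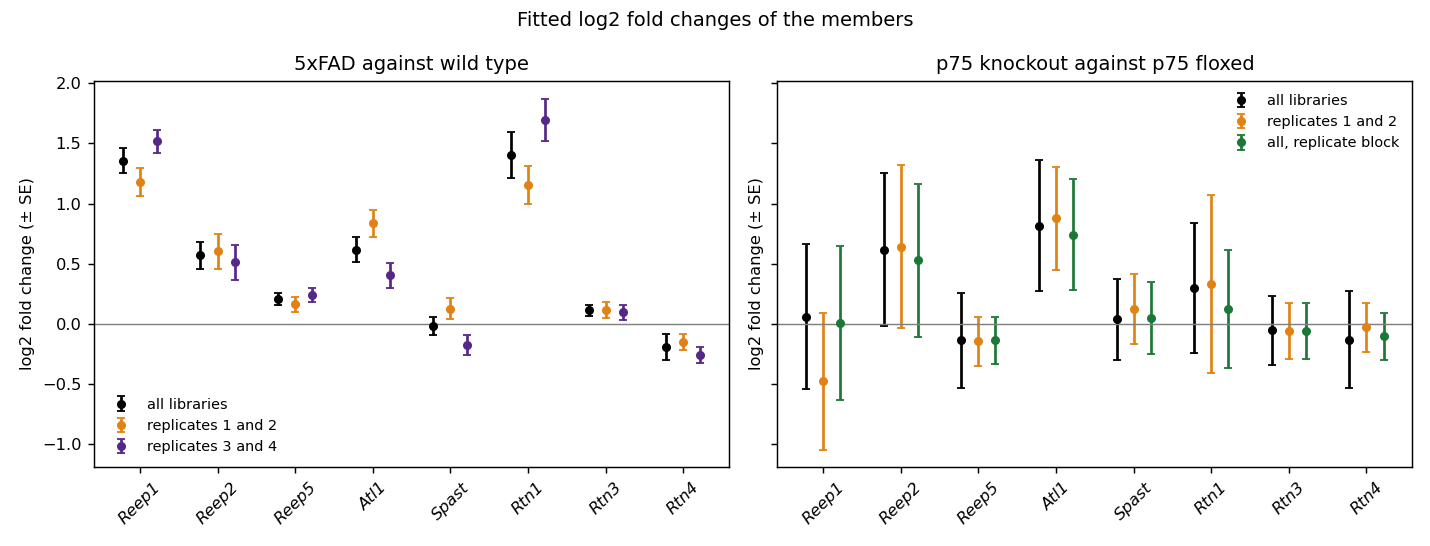
Log2 fold change of each member with its standard error, for 5xFAD over wild type and for p75 knockout over p75 floxed. The ranges given here are from the fit of all libraries without a block or a term for replicates. They leave out any other fit drawn. In the 5xFAD table the values run from -0.19 for Rtn4 to 1.41 for Rtn1, with standard errors of at most 0.19. In the p75 table the standard errors run from 0.29 to 0.64, and every value lies within 2 standard errors of 0.

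Levels of different genes can be compared only per length, so CPM were divided by the length of each gene's merged exons and scaled to 1 total in every library, as TPM are. On this scale the order in 5xFAD was Rtn4 (727 ± 94.7), Reep5 (337 ± 4.64), Rtn3 (216 ± 4.52), Reep1 (57.8 ± 5.19), Rtn1 (53.0 ± 4.93), Reep2 (30.4 ± 2.28), Spast (28.4 ± 1.78) and Atl1 (13.3 ± 0.794, SD, n = 4). Reep1 and Rtn1 overlapped there, as did Reep2 and Spast. In wild type the order was Rtn4 (828 ± 74.6), Reep5 (291 ± 6.18), Rtn3 (199 ± 6.0), Spast (28.7 ± 1.83), Reep1 (22.5 ± 3.01), Reep2 (20.4 ± 2.05), Rtn1 (20.0 ± 5.81) and Atl1 (8.62 ± 1.20, SD, n = 4). There Reep1, Reep2 and Rtn1 overlapped, and Rtn1, at up to 27.5, also overlapped Spast. Reep1 thus stood above Spast in every 5xFAD library (at least 52.3 for Reep1, at most 30.2 for Spast) and below it in every wild-type library (at most 26.5 for Reep1, at least 26.8 for Spast). The lengths come from an annotation of an older genome build than the counts and cover all isoforms, so they do not follow isoforms such as the long and short forms of Rtn1 and Rtn4.

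Set beside the neuronal markers, the members again differed from each other. Reep1 was equal to 4.99% to 5.39% of the summed neuronal CPM in 5xFAD libraries and 3.53% to 4.15% in wild-type libraries. Rtn1 was equal to 5.24% to 6.34% in 5xFAD libraries and 2.88% to 4.83% in wild-type libraries, so neither overlapped. Atl1 overlapped at 2.38% to 2.94% in 5xFAD libraries and 2.56% to 3.94% in wild-type libraries. So did Reep2 at 1.15% to 1.43% in 5xFAD libraries and 1.27% to 2.03% in wild-type libraries. Spast was lower on this scale, at 3.44% to 4.36% in 5xFAD libraries and 5.996% to 8.23% in wild-type libraries. The same held for Reep5, at 21.7% to 24.5% in 5xFAD libraries and 33.2% to 41.7% in wild-type libraries, and for Rtn3, at 22.4% to 24.8% in 5xFAD libraries and 34.4% to 44.9% in wild-type libraries. It also held for Rtn4 at 92.6% to 133% in 5xFAD libraries and 223% to 277% in wild-type libraries. So on this scale the groups stayed apart with 5xFAD higher for Reep1 and Rtn1, and overlapped for Atl1 and Reep2. They parted with 5xFAD lower for Spast, Reep5, Rtn3 and Rtn4. For Reep5 and Rtn3 this is the opposite direction to their CPM. It follows from the sum, which was higher in every 5xFAD library, so any gene with a nearly flat CPM comes out lower. How many of all genes part on this scale was not counted, so nothing is read from the number of members that did. The sum also leans on abundant markers such as Tubb3, with means of 399 CPM in 5xFAD and 255 CPM in wild type. By log2 fold change the median of the 14 markers was 1.35, close to Reep1 (1.36) and Rtn1 (1.41). Whether either gene rose beyond the neuronal markers was not tested.

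**Figure D3:**
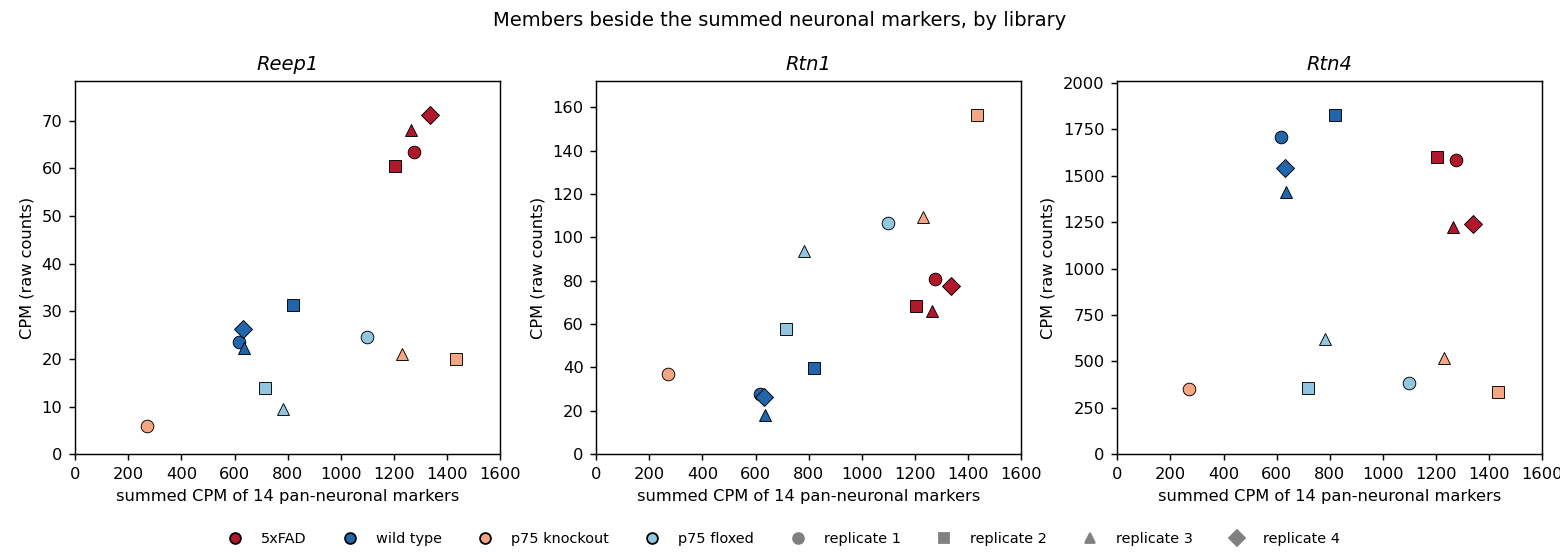
CPM of Reep1, Rtn1 and Rtn4 (vertical axes, from 0) against the summed CPM of 14 pan-neuronal markers (horizontal axis) in each of the 14 libraries, coloured by group (5xFAD, wild type, p75 knockout, p75 floxed) with a marker for each replicate. The 5xFAD libraries hold the highest values of Reep1, from 60.6 to 71.2 CPM, at neuronal sums of 1202 to 1337 CPM. The p75 knockout libraries 2 and 3, with sums of 1432 and 1229 CPM, have 20.1 and 21.0 CPM of Reep1. The tables were made separately, with different gene rows and depth. Levels were not tested between them, and nothing is read from a difference between tables.

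Over the 8 libraries of the 5xFAD table, the genes most like Reep1 by Pearson's r of log2(CPM + 1), among 11265 genes averaging 5 CPM or more, were Ret (r = 0.995), Scn10a (0.995), Mapk8ip2 (0.994), Slc17a6 (0.993) and Spock2 (0.990). Ret encodes the receptor tyrosine kinase for ligands of the GDNF family, and Scn10a a sodium channel of nociceptors. Slc17a6 encodes a vesicular glutamate transporter that is also among the neuronal markers, Mapk8ip2 a scaffold of the JNK pathway, and Spock2 a proteoglycan. Ret had 59.0, 60.6, 66.5 and 67.5 CPM in 5xFAD libraries, against 24.8, 34.3, 22.9 and 24.8 CPM in wild-type libraries. Of the members, Rtn1 (r = 0.969, rank 60), Rtn3 (0.956, rank 96) and Reep5 (0.954, rank 104) were more like Reep1 than Atl1 (0.888, rank 232) and Reep2 (0.870, rank 275), while Spast (-0.219) and Rtn4 (-0.501) were not alike. The 8 libraries fall into their 2 genotypes, so these r describe a shared group difference in the main, together with what the libraries share in depth and cell makeup.

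Earlier results of these data showed the 5xFAD table's libraries to part by replicate number in both genotypes, as Reep5 and Rtn4 did here. The difference of the 5xFAD effect between replicates 1 and 2 and replicates 3 and 4 was therefore tested. By edgeR's quasi-likelihood test of the interaction, 0 of the 8 members and 1.19% of 15845 genes were called. The share of all genes at an unadjusted p under 0.05 was not taken, so nothing is read from the 2 members there. These were Atl1, with a log2 fold change of 0.84 in replicates 1 and 2 and 0.40 in replicates 3 and 4 (adjusted p = 0.245), and Spast, with 0.13 in replicates 1 and 2 and -0.18 in replicates 3 and 4 (adjusted p = 0.298). Reep1 had 1.18 in replicates 1 and 2 and 1.52 in replicates 3 and 4 (adjusted p = 0.518), and Rtn1 1.15 and 1.70 (adjusted p = 0.709). Rtn4 had -0.15 and -0.26, so its direction was shared although the groups overlapped over all libraries.

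For the members that differed most (Reep1 and Rtn1) and the one whose groups overlapped most evenly (Spast), the sequence around the start of transcription is shown, from 250 bases before to 50 after it, as RefSeq gives it for build GRCm38.p6. The deposited counts were made on GRCm39 and no coordinate was converted. Capitals mark GC boxes (GGGCGG, or CCGCCC on the other strand), CCAAT boxes (CCAAT or ATTGG) and TATA boxes (TATAAA or TTTATA). Sequences run 5′ to 3′ on the gene's strand.
Reep1, chr6:71707431-71707730, plus strand: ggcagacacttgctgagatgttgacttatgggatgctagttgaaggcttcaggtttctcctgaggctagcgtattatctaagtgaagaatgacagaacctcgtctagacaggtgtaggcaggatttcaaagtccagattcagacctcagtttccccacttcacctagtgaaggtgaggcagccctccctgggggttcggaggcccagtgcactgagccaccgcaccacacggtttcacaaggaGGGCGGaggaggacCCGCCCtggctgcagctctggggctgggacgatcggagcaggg
Rtn1, chr12:72235697-72235996, minus strand: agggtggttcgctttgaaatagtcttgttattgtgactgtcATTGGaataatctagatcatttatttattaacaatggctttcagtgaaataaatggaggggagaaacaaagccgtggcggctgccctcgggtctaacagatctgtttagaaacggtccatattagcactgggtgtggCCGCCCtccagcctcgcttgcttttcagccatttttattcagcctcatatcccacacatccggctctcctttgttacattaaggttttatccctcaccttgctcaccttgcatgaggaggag
Rtn1, chr12:72236678-72236977, minus strand: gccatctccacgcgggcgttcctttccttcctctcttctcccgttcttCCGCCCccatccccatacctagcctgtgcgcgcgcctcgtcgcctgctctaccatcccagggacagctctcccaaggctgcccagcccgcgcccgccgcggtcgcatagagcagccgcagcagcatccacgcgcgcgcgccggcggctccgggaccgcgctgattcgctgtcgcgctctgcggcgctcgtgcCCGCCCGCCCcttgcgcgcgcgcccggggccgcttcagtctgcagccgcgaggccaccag
Spast, chr17:74338737-74339036, plus strand: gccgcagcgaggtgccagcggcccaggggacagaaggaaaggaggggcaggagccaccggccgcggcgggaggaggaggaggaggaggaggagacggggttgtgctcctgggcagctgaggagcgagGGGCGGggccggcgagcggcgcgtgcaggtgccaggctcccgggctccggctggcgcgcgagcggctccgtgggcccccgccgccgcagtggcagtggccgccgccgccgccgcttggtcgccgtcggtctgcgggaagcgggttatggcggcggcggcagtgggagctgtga

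The Reep1 window holds 2 GC boxes, no CCAAT or TATA box and 9 CG dinucleotides. Of the 3 Rtn1 windows in the table, the first shown holds 1 GC box, 1 CCAAT box and 8 CG. The second holds 3 GC boxes, of which 2 overlap, and 43 CG, and the window not shown holds none of the boxes and 3 CG. The Spast window holds 1 GC box and 38 CG. Among 32817 RefSeq windows of this length, 35.6% hold a GC box, 37.4% a CCAAT box and 13.6% a TATA box, and the median is 7 CG. A GC box was present both in members with a large difference and in Spast.

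The p75 comparison asks what loss of the p75 receptor does to these genes. It is taken here as not used to choose them, though earlier results of these data were known at the choice. No member passed the test. By edgeR's quasi-likelihood test 0 of 8 members were called, as were 0% of 11890 genes. At the same time 0 members had an unadjusted p under 0.05, against 1.18% of all genes. DESeq2 and the fit with the replicate number as a block also called 0 members, and the adjusted p was 0.9999 for each in edgeR. The p75 knockout and p75 floxed libraries overlapped for all 8 members, where 6.1% of all genes did not overlap. The members' median log2 fold change was 0.0483, against 0.0161 over all genes tested, and 5 of 8 were above 0, where 51.7% of all genes were. The spread in this table was large, so the intervals below (95%, 1.96 standard errors on each side, without the block) are wide.

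**Figure D4:**
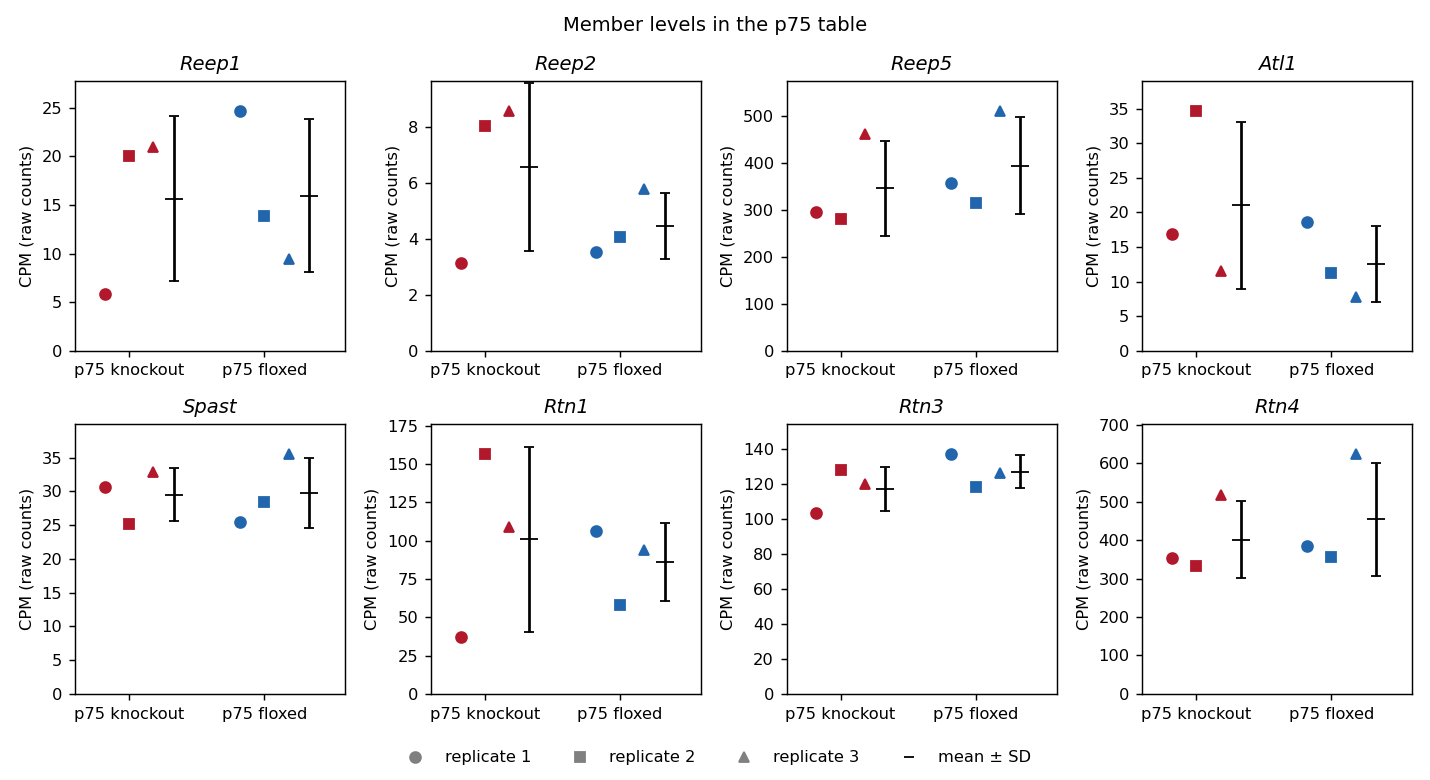
CPM of each member (vertical axes, from 0, each with its own scale) in the 3 p75 knockout libraries (left, red) and the 3 p75 floxed libraries (right, blue), with markers for replicates 1 to 3 and bars for the mean ± SD. The groups overlap for every member, and Reep5 and Rtn4 are highest in replicate 3 of both groups.

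Reep1 had 5.83, 20.1 and 21.0 CPM in p75 knockout libraries (28, 95 and 125 counts), against 24.7, 13.8 and 9.42 CPM in p75 floxed libraries (126, 75 and 57 counts). Its level varied more within each group than between them, with means of 15.6 ± 8.49 CPM in the p75 knockout and 16.0 ± 7.86 CPM in p75 floxed (SD, n = 3 each). The log2 fold change was 0.06 (SE 0.60, interval from -1.12 to 1.24), 0.45 without p75 knockout replicate 1, 0.49 without p75 floxed replicate 1, and -0.48 without both libraries of replicate 3. The p75 knockout library with the lowest Reep1 also had the lowest neuronal sum: the 14 markers summed to 271, 1432 and 1229 CPM in p75 knockout libraries, against 1097, 716 and 783 CPM in p75 floxed libraries. Relative to that sum Reep1 was equal to 1.40% to 2.15% in p75 knockout and 1.20% to 2.25% in p75 floxed libraries. Its share of the REEP counts was 4.24% ± 2.30 in the p75 knockout and 4.13% ± 2.31 in p75 floxed (SD, n = 3 each). The part of neuronal RNA in this spread was not tested.

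Reep2 was near the limit of the depth, with 3.13, 8.03 and 8.55 CPM in p75 knockout libraries (15, 38 and 51 counts), against 3.53, 4.06 and 5.78 CPM in p75 floxed libraries (18, 22 and 35 counts). The lowest library was a knockout and so were the highest 2, and the log2 fold change was 0.62 (SE 0.64, interval from -0.63 to 1.86). Reep5 had 294, 279.6 and 462 CPM in p75 knockout libraries, against 357, 313 and 510.0 CPM in p75 floxed libraries, at a log2 fold change of -0.14 (SE 0.39, interval from -0.91 to 0.64). Replicate 3 was the highest of each group for Reep5, 1.61 times the mean of replicates 1 and 2 in the p75 knockout and 1.52 times in p75 floxed. Replicate 3 of the knockout was lower than replicate 3 of p75 floxed, and knockout replicates 1 and 2 were below both floxed replicates 1 and 2. With the number as a block the log2 fold change was -0.14 (SE 0.19, interval from -0.52 to 0.24). Replicates 1 and 2 did not pair by number, so this fit assumes pairs that the data did not show.

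Atl1 had 16.9, 34.7 and 11.6 CPM in p75 knockout libraries, against 18.6, 11.3 and 7.77 CPM in p75 floxed libraries. Replicate 2 of the knockout stood above the other 5 libraries, which overlapped. The log2 fold change was 0.82 (SE 0.54, interval from -0.25 to 1.88), and 0.23 without that library. Spast overlapped closely, at 30.6, 25.2 and 32.9 CPM in p75 knockout libraries, against 25.5, 28.4 and 35.5 CPM in p75 floxed libraries, with a log2 fold change of 0.04 (SE 0.34, interval from -0.63 to 0.70).

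Rtn1 had 36.9, 156 and 109 CPM in p75 knockout libraries, against 107, 57.9 and 93.7 CPM in p75 floxed libraries. As for Reep1, replicate 1 of the knockout was the lowest library, and the log2 fold change of 0.30 (SE 0.54, interval from -0.76 to 1.35) became -0.18 without replicate 2 of the knockout and 0.69 without its replicate 1. Rtn3 had 104, 128 and 120.3 CPM in p75 knockout libraries, against 137, 118 and 126 CPM in p75 floxed libraries, at a log2 fold change of -0.05 (SE 0.29, interval from -0.62 to 0.51). Rtn4 had 353, 333 and 517 CPM in p75 knockout libraries, against 385, 355 and 623 CPM in p75 floxed libraries, at a log2 fold change of -0.13 (SE 0.40, interval from -0.92 to 0.66). Within each group Rtn4 was again highest in replicate 3, 1.51 times the mean of replicates 1 and 2 in the p75 knockout and 1.69 times in p75 floxed. Replicate 3 of the knockout was again lower than replicate 3 of p75 floxed, and knockout replicates 1 and 2 were below both floxed replicates 1 and 2. With the block, which assumes the same pairs, the log2 fold change was -0.10 (SE 0.19, interval from -0.48 to 0.28). Without both libraries of replicate 3 the log2 fold changes were 0.64 for Reep2, -0.15 for Reep5, 0.88 for Atl1, 0.13 for Spast, 0.33 for Rtn1, -0.06 for Rtn3 and -0.03 for Rtn4. None of these was called in edgeR either. The 8 members summed to 1038 ± 224 CPM in the p75 knockout and 1124 ± 261 CPM in p75 floxed (SD, n = 3 each).

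Of 17 other ER-shaping genes tested in the 5xFAD table, 1 rose and 0 fell by edgeR's quasi-likelihood test, with a median log2 fold change of 0.0208. The riser was Rtn2, the reticulon that binds spastin and is mutated in a form of hereditary spastic paraplegia in humans. It had 12.3, 12.5, 10.5 and 12.2 CPM in 5xFAD libraries, against 5.75, 8.52, 6.15 and 6.55 CPM in wild-type libraries, without overlap, 0.83 higher on the log2 scale (SE 0.14; edgeR, adjusted p = 0.0102). Among the paralogs of the members, Atl2 (0.02, SE 0.07), Atl3 (0.02, SE 0.08), Reep3 (0.09, SE 0.09), Reep4 (-0.03, SE 0.10) and Reep6 (-0.03, SE 0.17) were not called on the log2 scale. In the p75 comparison, 0 of these 17 genes were called by edgeR, DESeq2 or the block, 0 had an unadjusted p under 0.05, and their median log2 fold change was -0.0489.

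Of 18 other hereditary spastic paraplegia genes, 2 rose and 0 fell in 5xFAD, with a median log2 fold change of 0.0678. Kif5a, a kinesin motor of axonal transport, had 91.4, 88.1, 83.8 and 93.0 CPM in 5xFAD libraries, against 37.1, 53.1, 35.5 and 37.1 CPM in wild-type libraries, 1.14 higher on the log2 scale (SE 0.11; edgeR, adjusted p = 0.000895). Kif1a, a kinesin that carries synaptic and dense-core vesicles, had 365, 382, 339 and 372 CPM in 5xFAD libraries, against 272, 245, 299 and 269 CPM in wild-type libraries, 0.43 higher on the log2 scale (SE 0.07; edgeR, adjusted p = 0.0108). For both motors every 5xFAD library was above every wild-type library. Of these 18 genes, 0 were called in the p75 comparison by edgeR, DESeq2 or the block, and 0 had an unadjusted p under 0.05.

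Of 11 genes of the Nogo receptor pathway tested in 5xFAD, 0 rose and 1 fell by edgeR, with a median log2 fold change of -0.0168. The gene that fell was Ngfr, with 426, 454, 398 and 358 CPM in 5xFAD libraries, against 721, 666, 649 and 634 CPM in wild-type libraries, a fitted log2 difference of -0.70 (SE 0.08; edgeR, adjusted p = 0.00128). Mag, a myelin ligand of the Nogo receptor and also a Schwann cell marker, had a log2 fold change of 1.66 (SE 0.41) that did not pass in edgeR (adjusted p = 0.0661), but passed in DESeq2 (adjusted p = 0.00153) and in edgeR with a term for replicates 1 and 2 against 3 and 4 (adjusted p = 0.000232). Of the receptor genes, Rtn4rl2 (0.92, SE 0.37, adjusted p = 0.255) passed in edgeR with that term (adjusted p = 0.00293) but not in DESeq2, and Rtn4r (0.48, SE 0.32, adjusted p = 0.525) passed in none of the 3 fits. For the p75 comparison, 6 of the 12 listed genes passed the filter on low counts, with a median of -0.366 and 0 called by edgeR. The gene called by DESeq2 and the gene with an unadjusted p under 0.05 were both Ngfr.

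No gene was called by edgeR in 5xFAD among 7 ER-phagy receptors, which deliver ER to lysosomes (median log2 fold change 0.11, 3 higher at an unadjusted p under 0.05, 1 called by DESeq2). Ccpg1 (0.39, SE 0.11, adjusted p = 0.108) and Retreg1 (0.20, SE 0.06, adjusted p = 0.161), the receptor with a reticulon domain mutated in a human sensory neuropathy, were the nearest among them, and both were called higher with the term for replicates (adjusted p = 0.0369 for Ccpg1 and 0.029 for Retreg1). The 9 microtubule partners of spastin and atlastin had a median of 0.0801, with 0 called by edgeR or DESeq2 and 0 at an unadjusted p under 0.05. The 10 tested genes of ER contacts and smooth ER calcium had a median of 0.00456, with 0 called by edgeR or DESeq2 and 2 lower at an unadjusted p under 0.05. The 12 ER stress genes had a median of -0.121, with 10 below 0, 0 called by edgeR or DESeq2 and 3 lower at an unadjusted p under 0.05. Among them Hspa5, the ER chaperone BiP, had -0.23 (SE 0.08, adjusted p = 0.185), and with the term for replicates it was called lower (adjusted p = 0.0312), as were Pdia6 (0.00878) and Calr (0.0476). These are also ER chaperones or folding enzymes. The counts of these lists at an unadjusted p under 0.05 in 5xFAD stand without the share of all genes, so nothing is read from them. These lists had, in the p75 comparison, medians of 0.0221, 0.0615, 0.0893 and -0.041 in the same order, with 0 genes called by edgeR, DESeq2 or the block and 0 at an unadjusted p under 0.05. In 5xFAD, edgeR with the term for replicates called 1866 of 15845 genes, against 570 without it. Over all lists that term also called Retreg2 (adjusted p = 0.0378), Fign (0.0264), Nipa1 (0.039) and Ddhd1 (0.000389) higher. Itpr1 (0.00814) and Ckap4 (0.0259) were called lower with it.

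**Figure D5:**
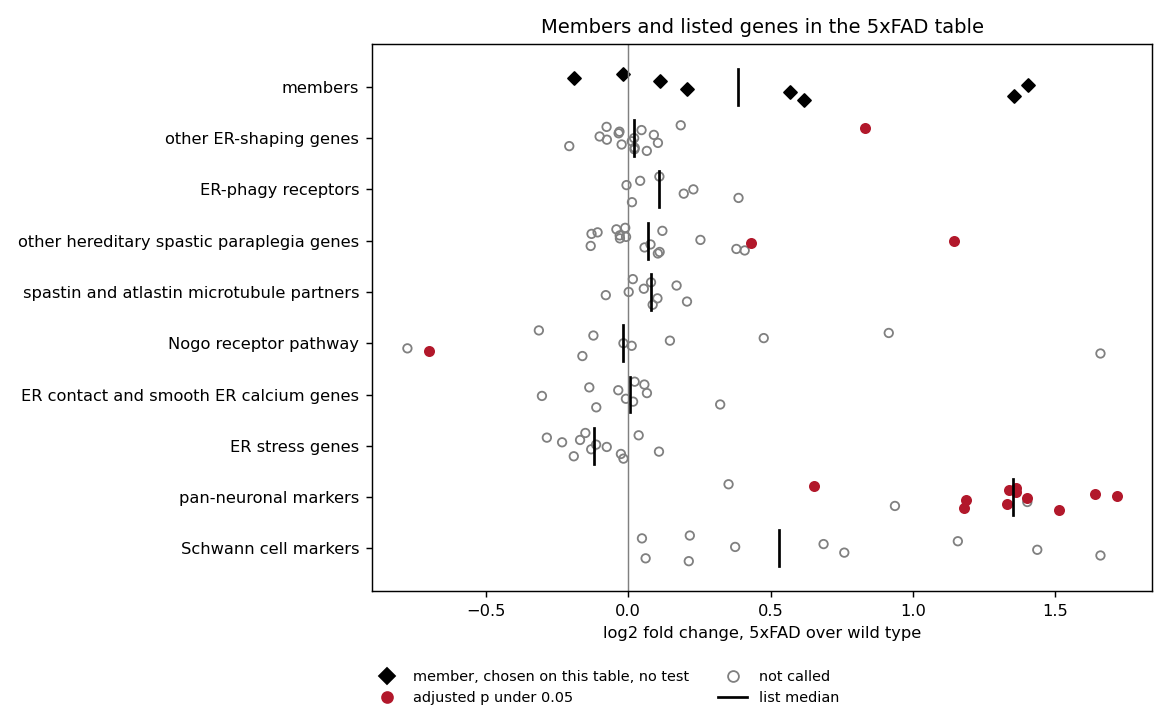
Log2 fold change of 5xFAD over wild type (horizontal axis) for the members, 7 lists of related genes, the neuronal markers and the Schwann cell markers, with the median of each list as a bar. Filled circles have an adjusted p under 0.05 in edgeR, open circles do not, and the members are drawn as diamonds with no test; the neuronal markers lie around a median of 1.35, while the medians of the 7 lists lie between -0.121 and 0.11.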

How the data were processed

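The authors deposited 2 tables of gene counts, as whole numbers without normalization. The genome build was GRCm39 per the submitters' processing notes. Their aligner and counter were not given in the sources used here. Groups came from the titles and genotypes; the p75 knockout columns, named P75-Adv, were matched by number and by elimination. Each table was fitted alone in R 4.3.3 with edgeR 4.0.16 (filterByExpr, TMM scaling, robust glmQLFit, glmQLFTest, no covariates, Benjamini-Hochberg adjustment over all genes tested, threshold 0.05). CPM were computed from the raw counts and library totals, without TMM. Alternatives were DESeq2 1.42.0 (test and size factors), library totals, no filter, the replicate number as a block, pairs of replicates alone or as a term, and leaving out each library. The code was tested on simulated counts. Named genes were the 8 members, called genes of 7 lists (at most 4 per list), Ngfr and App, and the 5 genes most like Reep1; other listed genes are named as examples chosen after their values were seen. The members and lists were chosen with earlier results of these data known. One listed symbol, Spart, was found as Spg20. For the block, the p75 libraries that share a replicate number were treated as pairs, on the data alone. Their deviations from the mean of their group had correlations of 0.344, 0.310 and 0.581, each over the 0.1 set for pairing. Across numbers, knockout replicate 1 gave 0.445 with floxed replicate 2, and knockout replicate 2 gave 0.375 with floxed replicate 1. Both were higher than at equal numbers, so the data set replicate 3 apart but did not pair replicates 1 and 2. App, whose human form is a 5xFAD transgene, had a log2 fold change of 0.14 in 5xFAD and -0.09 in the p75 knockout.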

Additional observations from a re-analysis of the deposited data

How the results depend on the processing

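Over 16 alternatives of the 5xFAD table the log2 fold change ran from 1.18 to 1.52 for Reep1, from 1.15 to 1.70 for Rtn1 and from 0.40 to 0.84 for Atl1. Since the members were chosen with this table in view, their calls support nothing. Reep5 missed the threshold in 11 of the 16 (0.16 to 0.24) and Reep2 in 5 (0.51 to 0.63). Rtn4 was called lower in 3 (replicate block, a term for replicates 1 and 2 against 3 and 4, replicates 3 and 4 alone), at up to -0.26. Against 5 members called, leaving out 1 library gave 3 to 5, with 3 without 5xFAD replicates 1, 2 or 4 or wild-type replicate 3. The number of genes called in 5xFAD was 570; it was 1028 with DESeq2, 1622 with the replicate block, 1866 with the term for replicates 1 and 2 and 2053 in replicates 1 and 2 alone, of which 1021 were higher and 1032 lower, against 406 higher and 164 lower in all libraries. Leaving out 1 library gave 237 to 516, with the lowest without wild-type replicate 1. The replicate numbers of the 5xFAD table share only a number, since equal numbers correlated by 0.118, 0.288, 0.389 and 0.0676 and 5xFAD replicate 1 correlated best with wild-type replicate 2. Of the other listed genes 4 were called, against 15 with the replicate block, 17 with that term, 16 in replicates 1 and 2 alone and 7 in replicates 3 and 4 alone. The block added, among others, Mag and Rtn4rl2 (higher) and Hspa5, Calr, Pdia4 and Pdia6 (lower). Rtn2, Kif5a, Kif1a and Ngfr were called in every alternative. For the p75 comparison, 0 genes were called, against 6 with DESeq2, 1 with the replicate block, 6 without both libraries of replicate 3 and 1 with a batch term for them; leaving out 1 library gave 0. Members called stayed at 0 in every alternative, and other listed genes called were 1 (Ngfr) with DESeq2 and without replicate 3. The causes of these changes were not tested. The p75 libraries hold fewer counts and have a common dispersion of 0.3, against 0.023 in the 5xFAD table, which limits what could be detected there; intervals cover the spread of these samples alone.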
